A study of Mus musculus with 16 samples.

Results

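On standard chow, hearts of mice with 2 delta 19 alleles of the Clock gene were compared with wild-type hearts, gene by gene. The comparison takes 8 of the 16 arrays of the study, 4 from mice whose genotype is given as Transgenic Clock delta 19/delta 19 and 4 from wild-type mice, all of strain C57Bl/6J and numbered as biological replicates. It was read over all 22180 genes that at least 1 probe set names alone. All 8 mice ate standard chow (SC) for 24 weeks, were 32 weeks old, and gave myocardium at ZT07, that is 7 hours after lights on. The other 8 arrays are the same genotypes after 24 weeks of a high-fat diet (HFD), and entered the fit so that all 4 groups share 1 estimate of the spread per gene. Each array was hybridised with RNA from 500 ng of total RNA of 1 heart.

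CLOCK pairs with BMAL1, encoded by Arntl, and the pair binds E-box elements to switch on the period, cryptochrome, REV-ERB and PAR-bZIP genes. The period and cryptochrome proteins feed back on the pair, while the REV-ERB proteins repress Arntl and the PAR-bZIP factor DBP carries the rhythm to output genes through D-box elements. In the heart this clock is known for timing the use of fatty acids and glucose, ion channel levels and the response to stress. The delta 19 protein still binds BMAL1 but activates transcription poorly, and the allele acts in every tissue of the animal, so the heart's own clock and signals from other tissues cannot be told apart in this design. Only 1 time of day was sampled.

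The deposited values are logarithms from which the median of that probe set across all 16 arrays was subtracted. Base 2 and a positive sign for higher expression were assumed, because the sources used here state neither. They hold no abundance, so the tissue label could not be checked against the level of heart markers, and every value below is a level relative to that median or a difference of such levels. The number of arrays limits the precision. Errors after ± are standard errors of the limma fit unless called SD, with 4 hearts in each group.

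Several of the 8 hearts stood apart from their group. Wild-type replicate 2 had high interferon-inducible transcripts, with a mean over 29 such genes of 0.92 against -0.11 to 0.045 in the other 3 wild-type hearts. In wild-type replicate 4 the mean over 14 E-box clock genes was -0.016, against 0.46, 0.56 and 0.82 in the other wild-type hearts and -0.37 to -0.10 in the Clock hearts. Clock replicate 4 resembled its group least (mean correlation 0.0051, against 0.082 to 0.098 for the other Clock hearts) and had the highest mean over neutrophil markers (0.16, against -0.031 to -0.011). The first principal component of the 8 arrays held 25.2% of the variance and ran from Clock replicate 3 to wild-type replicate 2.

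The Clock hearts differed from wild-type hearts in 109 genes, 0.491% of those tested, at an adjusted p under 0.05. In Clock hearts 53 genes (0.239%) were higher and 56 (0.252%) lower. The lower genes were led by Dbp, Ptgds and Ces1d, and the higher ones included Plac9a and the transporter genes Slc17a7 and Slc41a3. At an unadjusted p under 0.05 there were 2167 genes (9.77%), 1204 higher (5.43%) and 963 lower (4.34%). The differences of the 109 genes ran from 0.20 to 2.05 in size with a median of 0.45, and 8 exceeded 1, while the median over all genes was -0.00027 with an SD of 0.11 across genes. The 4 Clock and 4 wild-type values did not overlap in 108 of the 109 genes, the exception being Popdc3, and in 4.95% of all genes (2.58% higher and 2.38% lower in Clock hearts). When 1 heart was left out at a time, 38 of these calls were kept in all 8 fits.

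**Figure D1:**
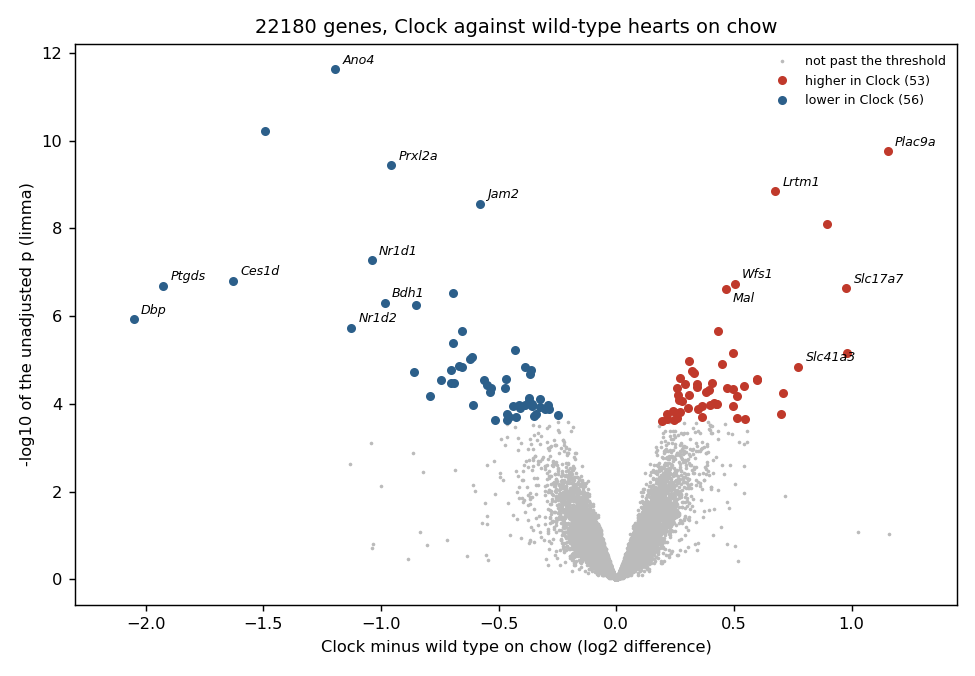
Difference between Clock and wild-type hearts on chow (x axis, log2) against the unadjusted p of the limma test (y axis, -log10) for 22180 genes. Red points are the 53 genes higher and blue points the 56 genes lower in Clock hearts at an adjusted p under 0.05; Ano4 has the smallest p and Dbp the largest difference.

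The gene that carries the mutation was read first. Clock lay at 0.12, 0.13, 0.01 and 0.07 in Clock hearts, replicates 1 to 4, and at -0.11, -0.10, -0.28 and 0.17 in wild-type hearts. The groups overlapped, because wild-type replicate 4 was the highest of all 8. At 0.17 ± 0.08, the difference missed the threshold (adjusted p = 0.529). The sources used here do not say which stretch of the transcript is probed, so this value does not test the genotype.

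Of 14 measured genes that CLOCK and BMAL1 activate through E-boxes, 5 fell and 0 rose, and 13 had a negative difference, where 49.8% of all genes had a positive one. The 5 were Dbp, both REV-ERB genes, the period gene Per3 and the deubiquitinase gene Usp2. At an unadjusted p under 0.05, 12 of the 14 were lower and 0 higher, and the median difference of the list was -0.55. Over all genes 0.252% fell, and 4.34% were lower and 5.43% higher at an unadjusted p under 0.05. This list, like the others, was chosen with earlier results of these data known, so its counts are only a description. Per2 is not among the 14, since its probe set names more than 1 gene.

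Dbp, the PAR-bZIP activator that binds D-boxes, lay at -0.58, -0.39, -0.62 and -0.37 in the Clock hearts and at 1.71, 1.89, 2.29 and 0.37 in the wild-type hearts. All 4 mutant values lay within a narrow band below every wild-type value, and wild-type replicate 4 was far below the other 3. The fall was 2.05 ± 0.27 (4.14-fold, adjusted p = 0.00154), with a 95% interval of -2.63 to -1.47. That error rests on 1 spread shared by all groups, whereas the SD differed between them. On chow it was 0.83 in wild-type and 0.13 in Clock hearts, and on HFD 0.28 and 0.083. Nr1d2, which encodes REV-ERB beta, lay at -0.56, -0.48, -0.31 and -0.22 against 0.78, 0.96, 1.11 and 0.09. It fell by 1.13 ± 0.16 (adjusted p = 0.00225), again with wild-type replicate 4 nearest to the mutants. Nr1d1, the gene of REV-ERB alpha, lay at -0.57, -0.30, -0.35 and -0.32 in Clock hearts and 0.72, 0.59, 1.01 and 0.30 in wild-type hearts and fell by 1.04 ± 0.11 (adjusted p = 0.000145). Its groups were separated by more than the range of the Clock hearts. In the limma fit of the 8 chow arrays alone Nr1d1 was called (adjusted p = 0.0164). Dbp (adjusted p = 0.05995) and Nr1d2 (adjusted p = 0.0707) were not called there.

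Per3 lay at -0.41, -0.27, -0.18 and -0.35 in Clock hearts against 0.44, 0.61, 0.93 and -0.01 in wild-type hearts and fell by 0.79 ± 0.15 (adjusted p = 0.0231). Usp2, known to stabilise clock proteins, lay at -0.21, -0.17, -0.36 and -0.24 against 0.49, 0.56, 0.76 and 0.01 and fell by 0.70 ± 0.12 (adjusted p = 0.0158). In both genes the wild-type replicate 4 sat just above the highest Clock heart, and the other 3 wild-type hearts lay well above it. Per3 was called in 3 and Usp2 in 6 of the 8 fits that left out 1 heart. Neither was called in the limma fit of the 8 chow arrays alone (adjusted p = 0.136 for Per3 and 0.107 for Usp2). Ciart, a repressor of the CLOCK and BMAL1 pair, had a difference of -1.04 ± 0.25 that missed the threshold (adjusted p = 0.0936). Its values were -0.25, -0.30, -0.28 and 0.17 in Clock hearts and 0.94, 1.19, 1.53 and -0.17 in wild-type hearts, so that replicate 4 of each group lay among the values of the other group. Per1 showed the same crossing of the replicates numbered 4, with -0.88, 0.04, -0.37 and 0.66 against 0.38, 0.59, 0.79 and -0.11 and a difference of -0.55 ± 0.27 (adjusted p = 0.529).

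The remaining E-box genes did not pass. Bhlhe41 and Bhlhe40, which encode the DEC repressors, differed by -0.55 ± 0.15 and -0.42 ± 0.19. Cry2, the cryptochrome, differed by -0.40 ± 0.12 and the cell cycle kinase gene Wee1 by -0.41 ± 0.15. The PAR-bZIP genes Hlf and Tef differed by -0.23 ± 0.11 and -0.16 ± 0.07, well short of their relative Dbp. Cry1, at 0.05 ± 0.08, was the member with a positive difference, and its sign turned without wild-type replicate 1. Without wild-type replicate 4 the fit called 7 of the 14 genes lower, with a median of -0.72, and in a fit of the 8 chow arrays alone it called 1. With wild-type replicates 1 and 3 as the only controls it called 6.

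A list of genes that REV-ERB represses through RORE elements, or that stand on the positive arm, had 0 of 7 members past the threshold in limma. It includes Clock itself, and Cry1, which was also counted among the E-box genes. At an unadjusted p under 0.05, 3 of the 7 were higher and 1 lower, against 5.43% and 4.34% of all genes. Arntl lay at 0.43, 0.37, 0.18 and 0.12 in Clock hearts and at -0.32, -0.66, -1.34 and 0.54 in wild-type hearts. The first 3 wild-type hearts were all below the Clock hearts, and wild-type replicate 4 was above all of them. The difference was 0.72 ± 0.26 (adjusted p = 0.309). Nfil3, the repressor that competes with DBP for D-boxes, lay at 0.38, 0.27, 0.03 and 0.50 against -0.02, -0.43, -0.43 and -0.11, with no overlap and a difference of 0.54 ± 0.13 (adjusted p = 0.0975). Rorb and Rora, which encode activators at RORE elements, differed by 0.37 ± 0.12 and -0.14 ± 0.05, and the CLOCK relative Npas2 by 0.09 ± 0.16. Among 11 partners and kinases of the clock, 1 fell, the NAD salvage gene Nampt, which lay at -0.08, -0.34, -0.25 and -0.46 against 0.06, 0.17, 0.09 and 0.03 and fell by 0.37 ± 0.07 (adjusted p = 0.0278). The Nampt call was kept in 2 of the 8 fits that left out 1 heart and lost in the fit of the 8 chow arrays.

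**Figure D2:**
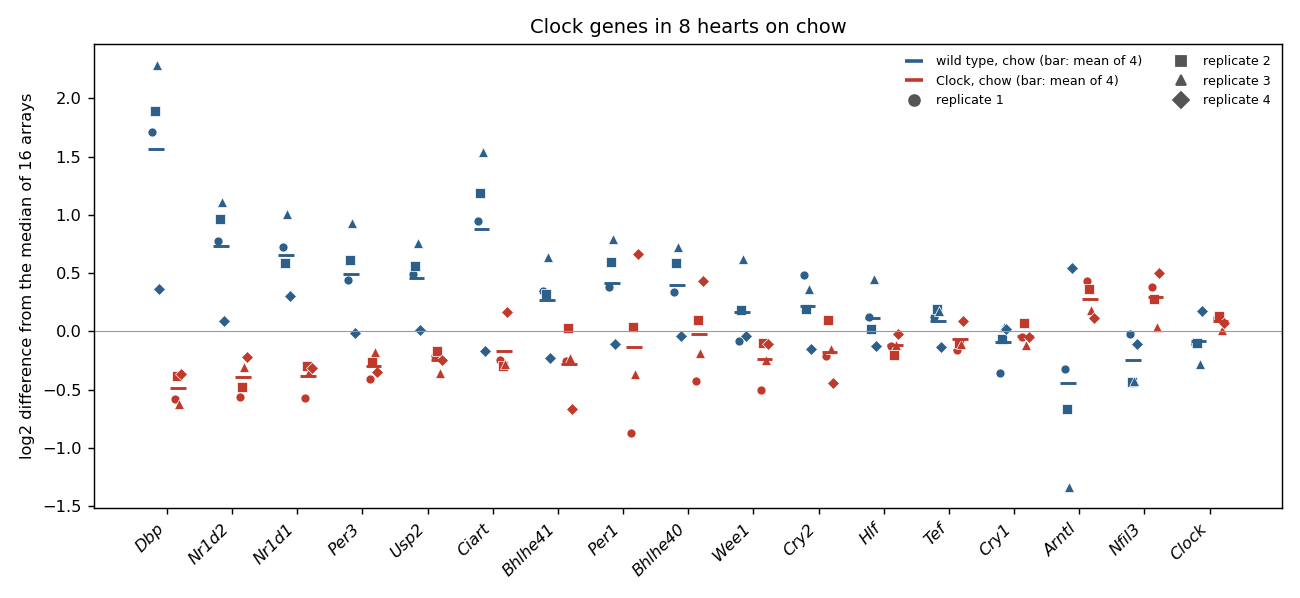
Values of 17 clock genes in the 8 hearts on chow (y axis, log2 difference from the gene's median over 16 arrays), wild type in blue and Clock in red, with a symbol per replicate and a bar at each group's mean of 4. Dbp, Nr1d2, Nr1d1, Per3 and Usp2 do not overlap between genotypes, and the wild-type diamond (replicate 4) lies nearest to the Clock hearts in each.

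The promoter windows of 16918 tested genes were searched on both strands for the elements of this circuit, in RefSeq sequence of GRCm38.p6. Each of the 20520 windows ran from 250 bases before to 50 bases after a RefSeq start. A gene counted if any of its windows held the element, so genes with more starts had more chances of a match. The E-box CACGTG was found for 9.22% of those genes, 4 of the 45 genes that fell (8.89%), 2 of the 38 that rose (5.26%) and 5 of 12 E-box clock genes (41.7%). The D-box, searched as TTATGTAA and TTACGTAA, was found for 1.16% of all genes, for 4 of 45 genes that fell (8.89%) and for 0 of 38 that rose. Those 4 were Per3, Ptgds, Coq10b and the predicted gene Gm19522. The end of the REV-ERB and ROR element, TAGGTCA or TGGGTCA, was found for 6.83% of all genes, 2 of 45 that fell (4.44%) and 7 of 38 that rose (18.4%), among the latter Ddit3, Ddah1 and Prkg1. Of those that rose, Limch1, Prkg1 and Smim14 held it only in a window other than the first listed. The same was true of Amy1 and Prxl2a, the genes that fell. The cyclic AMP element TGACGTCA was found for 2.64% of all genes, 0 of 45 that fell and 2 of 38 that rose (5.26%). No motif searched contains another, a match describes letters in a window, and no binding was measured. Of the 5 clock genes that fell, Per3 alone holds any of these 4 elements in its window. The windows of the 3 named genes that fell and hold a D-box follow, with Ciart as the clock gene with 3 E-boxes, D-boxes and E-boxes being in capitals and all other bases in lower case, each 5′ to 3′ along the strand of the gene.
Per3 (chr4:151044616-151044915, minus strand, D-boxes starting 205 and 158 bases before the start): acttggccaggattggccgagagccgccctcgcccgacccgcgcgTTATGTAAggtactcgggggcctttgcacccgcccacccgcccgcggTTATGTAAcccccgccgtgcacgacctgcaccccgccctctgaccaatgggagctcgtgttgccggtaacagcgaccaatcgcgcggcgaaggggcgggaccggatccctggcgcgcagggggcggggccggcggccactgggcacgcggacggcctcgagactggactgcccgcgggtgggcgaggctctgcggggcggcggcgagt
Ptgds (chr2:25469700-25469999, minus strand, D-box starting 141 bases before the start): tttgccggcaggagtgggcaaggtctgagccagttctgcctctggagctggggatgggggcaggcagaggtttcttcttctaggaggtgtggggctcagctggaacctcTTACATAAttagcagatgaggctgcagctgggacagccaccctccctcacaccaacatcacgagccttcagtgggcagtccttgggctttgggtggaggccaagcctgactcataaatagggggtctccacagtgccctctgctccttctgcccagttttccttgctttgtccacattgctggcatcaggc
Coq10b (chr1:55052520-55052819, plus strand, D-box starting 162 and E-box 78 bases before the start): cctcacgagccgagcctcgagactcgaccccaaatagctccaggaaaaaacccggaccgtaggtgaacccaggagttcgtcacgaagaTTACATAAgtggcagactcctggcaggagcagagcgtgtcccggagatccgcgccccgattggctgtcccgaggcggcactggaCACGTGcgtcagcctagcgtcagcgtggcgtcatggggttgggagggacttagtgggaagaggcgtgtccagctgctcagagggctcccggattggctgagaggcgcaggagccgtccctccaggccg
Ciart (chr3:95882179-95882478, minus strand, E-boxes starting 116, 58 and 44 bases before the start): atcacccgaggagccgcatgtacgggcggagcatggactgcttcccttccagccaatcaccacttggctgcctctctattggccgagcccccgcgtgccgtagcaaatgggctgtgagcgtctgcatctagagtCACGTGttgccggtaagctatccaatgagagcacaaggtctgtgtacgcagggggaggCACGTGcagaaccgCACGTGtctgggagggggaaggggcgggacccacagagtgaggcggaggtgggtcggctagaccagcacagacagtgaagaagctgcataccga

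Outside the core clock several lipid and ketone genes fell. Ptgds, the prostaglandin D synthase whose window carries a D-box, lay at -0.45, -0.93, -0.74 and -1.62 in Clock hearts and at 1.13, 1.39, 0.79 and 0.65 in wild-type hearts. The hearts of both groups varied, with Clock replicate 4 the lowest, yet the groups did not overlap. It fell by 1.93 ± 0.22 (3.8-fold, adjusted p = 0.000411) and was the 1 gene of 25 in the prostaglandin list past the threshold. Ces1d, a carboxylesterase that hydrolyses lipid esters, lay at -0.36, -0.45, -0.44 and -0.47 against 1.37, 1.43, 1.63 and 0.36. The Clock hearts lay within a narrow band, and wild-type replicate 4 lay below the other wild-type hearts, as it did for Dbp. Ces1d fell by 1.63 ± 0.19 (3.09-fold, adjusted p = 0.000383). Coq10b, which encodes a mitochondrial coenzyme Q binding protein and carries both a D-box and an E-box in its window, lay at -0.48, -0.20, -0.35 and -0.02 against 0.46, 0.73, 0.71 and 0.02 and fell by 0.75 ± 0.13 (adjusted p = 0.0146). Its highest Clock heart and lowest wild-type heart, both numbered 4, nearly touched.

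Among genes of ketone body use and fatty acid oxidation 3 passed the threshold, which 0.491% of all genes passed. Because the lists were chosen with earlier results of these data known, the count is only a description. Bdh1, the mitochondrial dehydrogenase that oxidises the ketone body beta-hydroxybutyrate, lay at -0.76, -0.40, -0.46 and -0.26 in Clock and at 0.62, 0.49, 0.40 and 0.53 in wild-type hearts. All 4 wild-type hearts were close together and above every mutant heart, wild-type replicate 4 included. Bdh1 fell by 0.98 ± 0.12 (1.98-fold, adjusted p = 0.000733) and was the 1 of 7 ketone body genes past the threshold. The lactate and ketone carrier gene Slc16a7 (-0.36) and Bdh2 (-0.21) were lower without passing, and Oxct1, which activates ketone bodies for oxidation, differed by -0.05. Of 20 fatty acid oxidation genes 2 fell, the isomerase genes Eci2 (-0.29 ± 0.06, adjusted p = 0.03) and Ech1 (-0.25 ± 0.05, adjusted p = 0.0415), and both calls were lost in 6 of the 8 fits that left out 1 heart. Cpt1a, the carnitine transferase of fatty acid entry, differed by -0.46 without passing, and the list median was -0.026.

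Of 20 cholesterol synthesis genes 3 fell, at separate steps of the pathway, where 0.252% of all genes fell. This list was likewise chosen with earlier results of these data known, so the count is only a description. The list median was 0.0099. Hsd17b7, a late sterol reductase, lay at -0.35, -0.14, -0.09 and -0.03 against 0.62, 0.60, 0.53 and 0.44 and fell by 0.70 ± 0.12 (adjusted p = 0.0111). Squalene synthase, Fdft1, fell by 0.39 ± 0.08 (adjusted p = 0.03) and phosphomevalonate kinase, Pmvk, by 0.37 ± 0.06 (adjusted p = 0.0123). Fdft1 was called in 2 and Pmvk in 8 of the 8 fits that left out 1 heart. For Pmvk wild-type replicate 4 was the highest heart (0.44), whereas for Fdft1 it was the lowest wild-type heart (9.3e-05). In the lists for PPAR-responsive lipid handling (19 genes), lipid droplets (18), glucose use (27), fatty acid and triglyceride synthesis (21) and branched-chain amino acid breakdown (19) limma called 0 genes. At an unadjusted p under 0.05, 5.43% of all genes were higher and 4.34% lower. The first of these lists held 1 higher and 1 lower gene at that level and the glucose list 3 and 2. The synthesis list held 6 higher, among them the desaturase gene Scd1 (0.40), and 7 lower, among them its relative Scd4 (-0.82). The respiratory chain and ATP synthase list had 0 of 69 called by limma, 9 higher and 0 lower at an unadjusted p under 0.05, and 56 positive differences with a median of 0.053. Cox7a1, a muscle subunit of cytochrome oxidase, had the smallest p of that list (0.22 ± 0.05, adjusted p = 0.0516).

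Other metabolic enzymes fell as well. Amy1, an amylase, lay at -0.48, -0.48, -0.58 and -0.42 against 0.32, 0.30, 0.27 and -0.07 and fell by 0.70 ± 0.10 (adjusted p = 0.00435). Fmo2, a flavin monooxygenase, fell by 0.65 ± 0.09 (adjusted p = 0.00239), the redox protein gene Prxl2a by 0.96 ± 0.07 (adjusted p = 2.00e-06) and the glutathione transferase gene Gstt1 by 0.41 ± 0.08 (adjusted p = 0.0325). A second glutathione transferase gene, Gstm7, rose by 0.35 ± 0.07 (adjusted p = 0.0327), and the carbonic anhydrase gene Car3 by 0.40 ± 0.08 (adjusted p = 0.03). Gstt1 was called in 2 and Gstm7 and Car3 in 3 of the 8 fits that left out 1 heart. None of them was called in the limma fit of the 8 chow arrays alone. Prxl2a values were -0.41, -0.27, -0.27 and -0.45 in Clock hearts and 0.46, 0.81, 0.53 and 0.62 in wild-type hearts, so that the gap between groups was wider than either group. Amy1, Ces1d, Gstm7, Plac9a, the histone gene H4c8 and the vomeronasal receptor gene Vmn1r3 belong to families with close copies, and sharing of signal between copies was not tested.

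**Figure D3:**
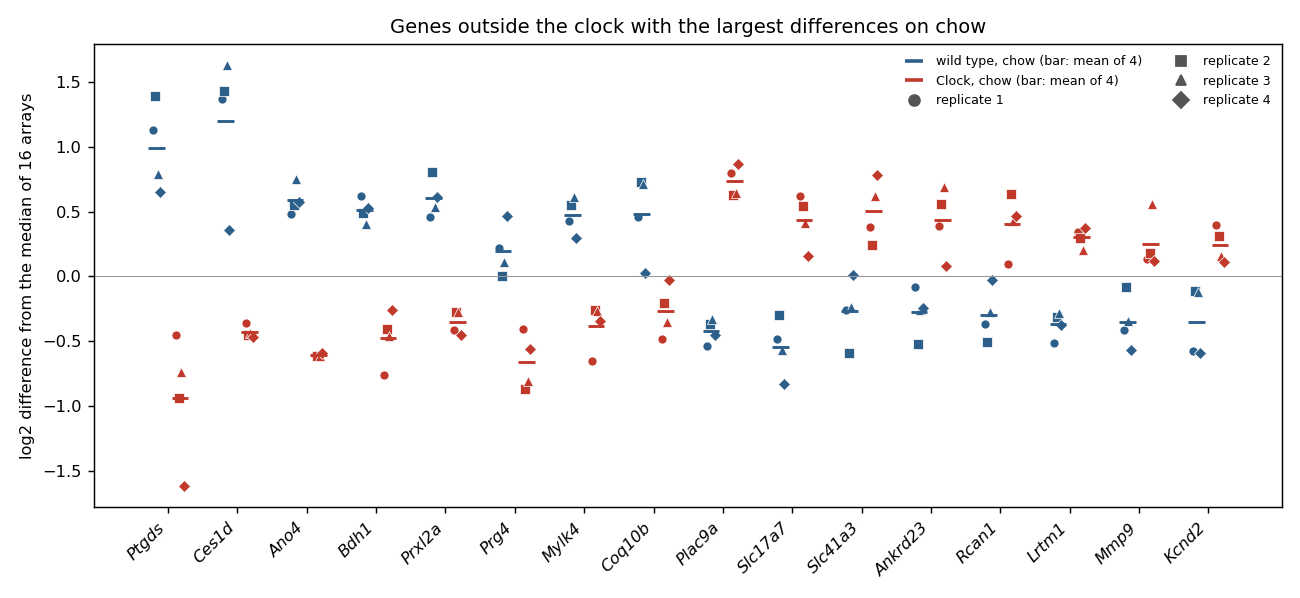
Values of 16 genes outside the core clock in the 8 hearts on chow (y axis, log2 difference from the gene's median over 16 arrays), wild type in blue and Clock in red, with a symbol per replicate and a bar at each group's mean of 4. The 8 genes at the left were lower and the 8 at the right higher in Clock hearts, and no gene shown overlaps between genotypes.

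Ano4 and Jam2, both membrane proteins, separated the genotypes with little spread within groups. Ano4, a member of the anoctamin family of channels and scramblases, lay at -0.61, -0.62, -0.61 and -0.59 in Clock hearts and at 0.48, 0.55, 0.75 and 0.58 in wild-type hearts. The Clock hearts had an SD of 0.01 and the wild-type hearts one of 0.12, and no heart numbered 4 stood apart. Ano4 fell by 1.20 ± 0.06 and had the smallest p of all genes (adjusted p = 5.26e-08). The junctional adhesion molecule gene Jam2 lay at -0.30, -0.16, -0.25 and -0.38 against 0.36, 0.25, 0.35 and 0.26 and fell by 0.58 ± 0.05 (adjusted p = 1.01e-05). Its fold of 1.5 was modest beside Dbp, but the spread within groups was small.

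Among potassium channel and calcium handling genes 3 passed the threshold, which 0.491% of all genes passed. These lists were chosen with earlier results of these data known, so the count is only a description. Kcnd2, a pore subunit of the transient outward potassium current, lay at 0.40, 0.31, 0.16 and 0.11 in Clock and at -0.58, -0.11, -0.12 and -0.59 in wild-type hearts. The wild-type hearts fell into a lower pair (replicates 1 and 4) and a higher pair, all below the Clock hearts, and the rise was 0.60 ± 0.10 (adjusted p = 0.0146). Abcc9, the sulphonylurea receptor subunit of ATP-sensitive potassium channels, fell by 0.32 ± 0.06 (adjusted p = 0.0314), and these were the 2 of 26 potassium channel genes past the threshold. Kcnd2 was called in 7 and Abcc9 in 2 of the 8 fits that left out 1 heart. Kcnip2, a subunit that partners the Kcnd channels, differed by -0.39 without passing. Hcn2, a pacemaker channel gene, lay at 0.28, 0.15, 0.51 and 0.03 against -0.08, -0.26, -0.20 and -0.38 without overlap and with a difference of 0.47 ± 0.11 (adjusted p = 0.0693). In a list of 30 calcium handling genes 1 rose, Lrtm1, a leucine-rich repeat membrane protein rather than a known calcium channel or pump. It lay at 0.34, 0.30, 0.20 and 0.38 against -0.51, -0.31, -0.28 and -0.38 and rose by 0.67 ± 0.06 (adjusted p = 6.31e-06). Ryr2, the calcium release channel of the sarcoplasmic reticulum, differed by 0.19 without passing. Mrln, which in mouse skeletal muscle encodes a small inhibitor of the calcium pump, rose by 0.38 ± 0.07 (adjusted p = 0.0202). Its call was kept in 4 of the 8 fits that left out 1 heart.

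Of 28 genes of beta-adrenergic and cyclic nucleotide signalling limma called 0, and their median was 0.012. At an unadjusted p under 0.05, 7 were higher and 2 lower, against 5.43% and 4.34% of all genes. Some called genes of related function stood outside that list and were picked by role after the calls were known. Rgs6, a regulator of parasympathetic G-protein signals in the heart, fell by 0.39 ± 0.06 (adjusted p = 0.0101). Rgs7bp, which anchors that family of regulators at the membrane, fell by 0.61 ± 0.10 (adjusted p = 0.00746). Pde11a, a phosphodiesterase of both cyclic nucleotides, fell by 0.56 ± 0.10, while Prkg1, the cyclic GMP-dependent kinase, rose by 0.47 ± 0.09 and Popdc3, of the cyclic AMP-binding Popeye family, by 0.36 ± 0.08. In the vascular list of 24 genes Ddah1, which degrades an inhibitor of nitric oxide synthase, rose by 0.34 ± 0.06. Mme, the peptidase neprilysin that degrades natriuretic peptides, fell by 0.66 ± 0.11, with -0.46, -0.24, -0.68 and -0.23 in Clock and 0.40, 0.09, 0.18 and 0.34 in wild-type hearts. Irx3, a factor known for patterning ventricular conduction, fell by 0.36 ± 0.06 (adjusted p = 0.0111) and was the 1 of 10 conduction system genes past the threshold. The myosin light chain kinase gene Mylk4 fell by 0.85 ± 0.11 (adjusted p = 0.000773), with -0.65, -0.26, -0.27 and -0.35 against 0.43, 0.55, 0.61 and 0.29, and the heart-specific leucine-rich repeat gene Lrrc10 by 0.52 ± 0.11 (adjusted p = 0.0486). The Lrrc10 call was lost in each of the 8 fits that left out 1 heart, and Clock replicate 1 was its lowest heart by a wide margin. In those fits Popdc3 was called in 2, Ddah1 in 4, and Pde11a and Prkg1 in 6 each.

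Transporter genes held 2 of the larger rises. Slc17a7, a vesicular glutamate transporter, lay at 0.62, 0.55, 0.41 and 0.16 in Clock hearts and at -0.48, -0.30, -0.56 and -0.83 in wild-type hearts and rose by 0.98 ± 0.12 (1.97-fold, adjusted p = 0.000413). Slc41a3, a magnesium transporter, lay at 0.38, 0.24, 0.62 and 0.78 against -0.26, -0.59, -0.23 and 0.01 and rose by 0.77 ± 0.13 (adjusted p = 0.0101). Both were called in all 8 fits that left out 1 heart. In the limma fit of the 8 chow arrays alone Slc17a7 was called (adjusted p = 0.0164) and Slc41a3 was not (adjusted p = 0.0958). These were the 2 of 46 measured solute carriers past the threshold, which 0.491% of all genes passed. As the list was chosen with earlier results of these data known, the count is only a description. That list had 19 positive and 27 negative differences, with a median of -0.020. Wfs1, the endoplasmic reticulum membrane protein wolframin, rose by 0.50 ± 0.06 (adjusted p = 0.000406), with 0.34, 0.14, 0.19 and 0.21 against -0.30, -0.28, -0.14 and -0.42. Plac9a, a small secreted protein with 3 probe sets, had the largest rise of all called genes. It lay at 0.80, 0.63, 0.64 and 0.86 against -0.54, -0.37, -0.33 and -0.45, 2 compact groups, and rose by 1.15 ± 0.08 (2.23-fold, adjusted p = 1.27e-06).

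Several genes of the extracellular matrix were higher in Clock hearts. Of 32 non-collagen matrix genes 2 rose and 0 fell, where 0.239% of all genes rose and 0.252% fell. At an unadjusted p under 0.05, 13 were higher and 0 lower, against 5.43% and 4.34% of all genes, and the median difference was 0.15. The matrix lists were chosen with earlier results of these data known, so their counts are only a description. Fibronectin, Fn1, lay at 0.35, 0.17, 0.11 and 0.05 in Clock and at -0.28, -0.35, -0.12 and -0.28 in wild-type hearts and rose by 0.43 ± 0.08 (adjusted p = 0.03). Nid1, the basement membrane linker nidogen, lay at 0.29, 0.23, 0.23 and 0.20 against -0.06, -0.28, -0.03 and -0.26 and rose by 0.39 ± 0.07 (adjusted p = 0.0188). Neither overlapped between genotypes, yet Fn1 was called in 2 and Nid1 in 3 of the 8 fits that left out 1 heart. Among 26 matrix enzymes and inhibitors the 2 that rose were the gelatinases. Mmp9 lay at 0.13, 0.18, 0.56 and 0.12 against -0.41, -0.09, -0.35 and -0.57 and rose by 0.60 ± 0.10 (adjusted p = 0.0146), with Clock replicate 3 far above the other Clock hearts. Mmp2 lay at 0.15, 0.06, -0.02 and 0.20 against -0.33, -0.46, -0.30 and -0.67 and rose by 0.54 ± 0.10 (adjusted p = 0.0174). Their inhibitors Timp2 (0.30) and Timp3 (-0.32) had differences of opposite sign and did not pass. Limma called 0 of 22 collagen genes, with 5 higher and 1 lower at an unadjusted p under 0.05 and a median of 0.068. Prg4, the lubricating proteoglycan, which was in none of these lists, fell by 0.86 ± 0.14 (adjusted p = 0.0115), from 0.22, -0.00088, 0.11 and 0.46 in wild-type hearts to -0.41, -0.87, -0.80 and -0.56 in Clock hearts.

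Markers of stromal cells lay higher beside the matrix genes. All 14 fibroblast markers had a positive difference, with a median of 0.24, 0 called by limma and 8 higher at an unadjusted p under 0.05, where 5.43% of all genes were. Their mean lay between -0.011 and 0.091 in the Clock hearts and between -0.22 and -0.043 in the wild-type hearts, so the groups did not overlap. List means also did not overlap for E-box clock, ketone body, collagen, matrix enzyme, non-collagen matrix and endoplasmic reticulum stress genes. Among the fibroblast markers Lum (0.37) and Gsn (0.32) had the smallest p. Of 14 endothelial markers 13 were positive, with a median of 0.18, 0 called and 8 higher at an unadjusted p under 0.05. Their mean ran from 0.0054 to 0.16 in Clock and from -0.12 to 0.033 in wild-type hearts, and these ranges overlapped. The 12 cardiomyocyte markers had a median of 0.021 with 0 called and 1 higher at an unadjusted p under 0.05 (Ryr2), and means between -0.091 and 0.052 in Clock and between -0.13 and 0.031 in wild-type hearts. Some genes stand in both the fibroblast and the matrix lists, and the part of these markers in the matrix result was not tested. The cell type lists too were chosen with earlier results of these data known, so their counts are only a description. In RNA of whole tissue, more cells of a type and more RNA of its markers per cell cannot be told apart.

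Smooth muscle and pericyte markers had 1 of 14 genes past the threshold, Abcc9, which fell. Of those 14, 10 had a positive difference, with a median of 0.082, and 4 were higher and 2 lower at an unadjusted p under 0.05. Neutrophil markers had 1 of 12 genes past the threshold, Lcn2, the secreted iron-siderophore binding protein lipocalin 2. Of those 12, 7 had a positive difference, with a median of 0.021, and 1 was higher and 2 lower at an unadjusted p under 0.05. Over all genes 5.43% were higher and 4.34% lower at that level. Lcn2 lay at -0.39, -0.35, -0.38 and 0.05 in Clock hearts and at 0.47, 0.50, 0.20 and 0.19 in wild-type hearts and fell by 0.61 ± 0.12 (adjusted p = 0.03), a call kept in 3 of the 8 fits that left out 1 heart. Clock replicate 4, the heart with the highest neutrophil mean, was also the highest Clock heart for Lcn2. In the other 17 cell type lists limma called 0 genes. For macrophages (16 genes), T and NK cells (12) and B cells (8) the medians were -0.018, -0.069 and -0.053.

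In the lists for endoplasmic reticulum stress, for mTOR control and for the fetal and stretch response 4 genes passed the threshold, which 0.491% of all genes passed. That count is only a description, since the lists were chosen with earlier results of these data known. Ddit3, the transcription factor CHOP of the endoplasmic reticulum stress response, lay at 0.28, 0.20, 0.06 and 0.09 in Clock and at -0.37, -0.25, -0.19 and -0.22 in wild-type hearts. It rose by 0.42 ± 0.08 (adjusted p = 0.0293) and was the 1 of 35 genes of its list past the threshold. In that list 7 genes were higher and 0 lower at an unadjusted p under 0.05, against 5.43% and 4.34% of all genes. Mthfd2, a mitochondrial folate enzyme induced by ATF4, differed by 0.43 and Atf4 itself by 0.23, neither passing. Ddit4, which restrains mTOR and was the 1 of 30 genes of its list past the threshold, lay at -0.04, 0.17, 0.04 and 0.18 against -0.27, -0.76, -0.54 and -0.28 and rose by 0.55 ± 0.12 (adjusted p = 0.0478). Ddit3 was called in 4 and Ddit4 in 2 of the 8 fits that left out 1 heart. Of 29 genes of the fetal, stretch and calcineurin response 2 rose and 0 fell. At an unadjusted p under 0.05, 4 of the 29 were higher and 5 lower, and the list median was 0.023. Rcan1, the inhibitor of calcineurin, lay at 0.10, 0.63, 0.43 and 0.47 against -0.37, -0.51, -0.27 and -0.03 and rose by 0.70 ± 0.14 (adjusted p = 0.0397). Ankrd23, an ankyrin repeat protein induced by stretch, lay at 0.39, 0.56, 0.69 and 0.08 against -0.08, -0.52, -0.26 and -0.25 and rose by 0.71 ± 0.13 (adjusted p = 0.0207). Rcan1 was called in 2 and Ankrd23 in 3 of the 8 fits that left out 1 heart, and neither in the fit of the 8 chow arrays. Nppa, Myh7 and Acta1, of the same list, had negative differences that did not pass. Nppa, the atrial natriuretic peptide gene, lay at -0.81, 0.61, 0.64 and -1.15 in Clock hearts against 1.19, 0.62, 0.67 and 0.82 in wild-type hearts, with Clock replicates 1 and 4 low and replicates 2 and 3 close to the lowest controls (-1.0 ± 0.33, adjusted p = 0.253). The slow myosin gene Myh7 differed by -0.69 ± 0.20 (adjusted p = 0.184) and skeletal actin, Acta1, by -1.13.

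**Figure D4:**
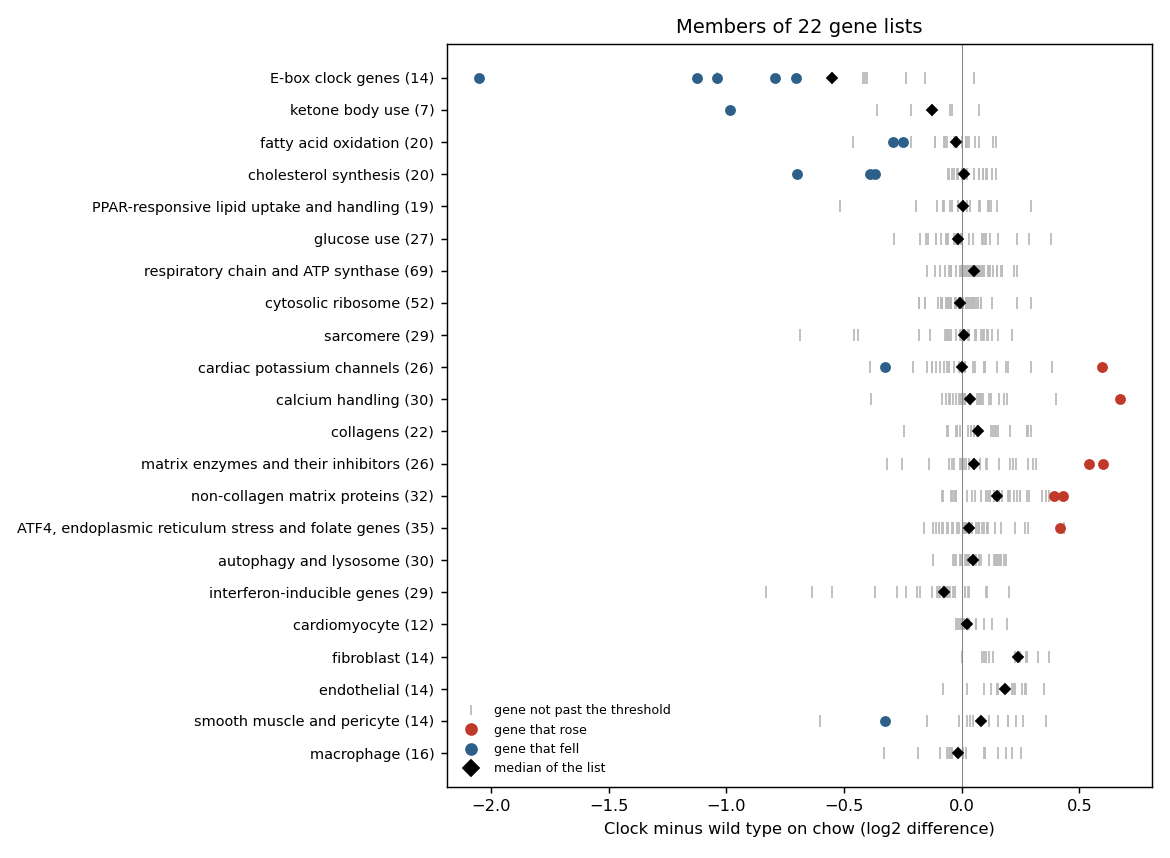
Differences between Clock and wild-type hearts on chow (x axis, log2) for every measured member of 22 gene lists, with the number measured in brackets. Red and blue points are genes that rose or fell at an adjusted p under 0.05, grey ticks are the others and black diamonds the list medians, which are lowest for E-box clock genes (-0.55) and highest for fibroblast markers (0.24).

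Limma called 0 of 29 interferon-inducible genes, 0 at an unadjusted p under 0.05, and their median was -0.077. That negative median turned with the interferon-high heart, since without wild-type replicate 2 it was 0.11. Iigp1, an interferon-inducible GTPase, lay at 2.94 in that heart and between 0.12 and 0.32 in the other wild-type hearts. Limma also called 0 of 52 cytosolic ribosomal, 0 of 56 mitochondrial ribosomal, 0 of 36 proteasome and 0 of 30 autophagy and lysosome genes. At an unadjusted p under 0.05 those lists held 1 higher and 2 lower, 5 and 3, 1 and 1, and 6 and 0. Over all genes 5.43% were higher and 4.34% lower at that level. Across all 65 lists 40 held no called gene, and 77 of the 109 called genes were in none of the lists.

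The following called genes were in none of the lists and were picked by role after the calls were known, so they describe no group. The ephrin receptor gene Epha4 fell by 0.53 ± 0.10 and its relative Epha6 rose by 0.51 ± 0.10. Epb41l3, which ties membrane proteins to the cytoskeleton, fell by 0.55 ± 0.10 and the cadherin gene Cdh20 by 0.32 ± 0.06. Among higher genes were the hedgehog co-receptor Cdon (0.36), the interleukin 13 receptor subunit Il13ra1 (0.43), the membrane trafficking protein Mal (0.47) and the tetraspanin Tspan12 (0.24). Mal and Il13ra1 were called in all 8 fits that left out 1 heart, with 0.31, 0.28, 0.20 and 0.34 in Clock and -0.08, -0.28, -0.18 and -0.20 in wild-type hearts for Mal. Kinase genes Wnk1 (0.24) and Stk24 (0.32) were also higher. The Golgi membrane gene Golm2 fell by 0.69 ± 0.08 (adjusted p = 0.000469), the flippase gene Atp8a1 by 0.37 ± 0.07 and the histone ADP-ribosylation factor gene Hpf1 by 0.28 ± 0.06. Golm2 and Stk24 were also called in all 8 fits that left out 1 heart. Epha4 and Epb41l3 were called in 5 of them, Atp8a1 in 4, and Epha6 and Cdh20 in 3. Cdon and Tspan12 were called in 2, Wnk1 in 1 and Hpf1 in 0. Predicted genes and numbered clones made up 13 of the 109, led by the long non-coding RNA gene Gm19522 (-1.49), whose window holds a D-box, and by Gm3893 (0.98), annotated as a transcribed pseudogene.

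By chromosome, on the gene order of GRCm38.p6, the called genes were spread over all chromosomes but Y. On chromosome 1, 15 of 1229 tested genes were called (1.22%, against 0.491% of all genes), 10 of them lower. On chromosome 5, which carries Clock, 4 of 1261 were called (0.317%). Of 88 pairs of neighbouring called genes 9 had fewer than 10 tested genes between them, and 3 of those moved in the same direction. Those 3 were Kcnd2 with Tspan12 and Irx3 with the long non-coding RNA gene Crnde, both adjacent, and Epha4 with Wdfy1. On chromosome 8, Crnde, Mmp2 and Ces1d lay near each other and moved in opposite directions, with differences of -0.45, 0.54 and -1.63.

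On the high-fat diet the same 2 genotypes differed in 422 genes (1.90%), from arrays that the chow comparison does not use, though the fit shares 1 spread per gene. Of the 109 chow genes 105 had the same sign on HFD, and 73 were past the threshold there too. The other 36, 22 higher and 14 lower on chow, did not pass on HFD. Because they were chosen by passing on chow and not on HFD, their smaller differences on HFD follow from the choice and are given as a description. Limma found 0 genes whose genotype difference itself differed between diets at an adjusted p under 0.05, the smallest adjusted p being 0.150, and 1122 (5.06%) at an unadjusted p under 0.05. Among the 109 the smallest p belonged to the clone A730017L22Rik, at 0.27 ± 0.05 on chow and -0.13 ± 0.05 on HFD. Next came the zinc finger genes Zfp623 (0.26 ± 0.05 and -0.05 ± 0.05) and Zfp955a (0.42 ± 0.08 and -0.03 ± 0.08), then Car3 (0.40 ± 0.08 and -0.03 ± 0.08) and Ddit3 (0.42 ± 0.08 and 0.01 ± 0.08).

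Ddit3 on HFD lay at -0.01, -0.08, 0.28 and 0.01 in Clock and at 0.15, -0.02, -0.13 and 0.15 in wild-type hearts, so the groups overlapped. Its difference between diets was 0.40 ± 0.11 (unadjusted p = 0.00283, adjusted p = 0.76). Other genes called on chow and not on HFD were Tmem196 (-0.67 ± 0.11 and -0.39 ± 0.11), Epha6 (0.51 ± 0.10 and 0.27 ± 0.10), H4c8 (0.51 ± 0.11 and 0.05 ± 0.11) and Lrrc10 (-0.52 ± 0.11 and -0.34 ± 0.11). The deaminase gene Dctd (-0.47 ± 0.08 and -0.32 ± 0.08) and the ADP-ribosyltransferase gene Art4 (-0.47 ± 0.09 and -0.25 ± 0.09) belonged to them too. Ces1d and Per3 had larger differences on HFD. Ces1d differed by -1.63 ± 0.19 on chow and -2.55 ± 0.19 on HFD (unadjusted p = 0.00291 for the difference between diets, adjusted p = 0.76), and Per3 by -0.79 ± 0.15 and -1.34 ± 0.15 (unadjusted p = 0.0185, adjusted p = 0.933). For both, wild-type replicate 4 on chow was the lowest control, whereas the 4 wild-type hearts on HFD lay at 1.90, 1.93, 2.23 and 1.98 for Ces1d and at 0.93, 1.22, 1.22 and 1.20 for Per3. Ptgds differed by -1.93 ± 0.22 on chow and -1.26 ± 0.22 on HFD.

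**Figure D5:**
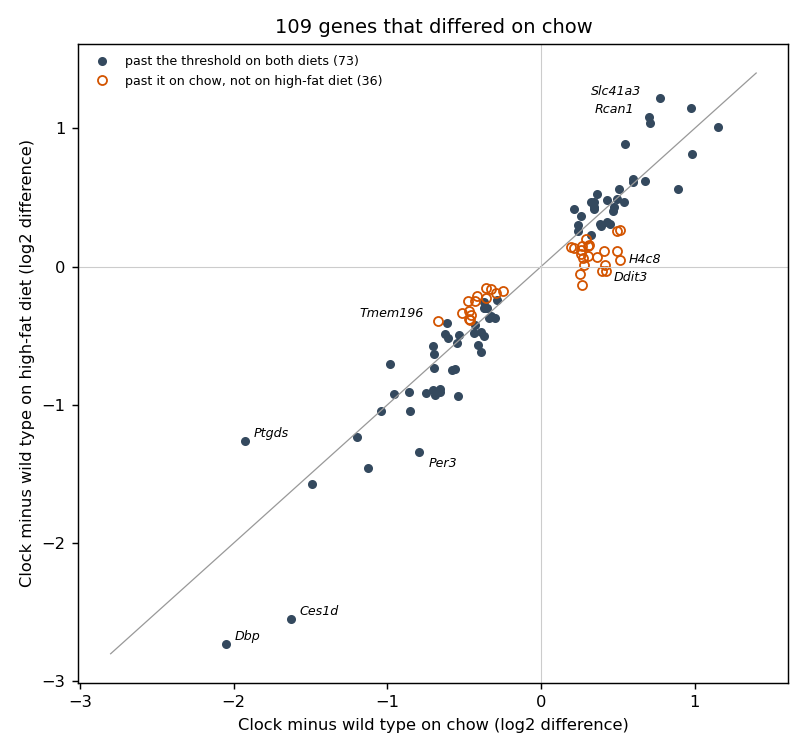
Difference between Clock and wild-type hearts on chow (x axis, log2) against that on the high-fat diet (y axis, log2) for the 109 genes called on chow. Filled points (73) passed on both diets, open points (36) on chow and not on HFD, and the line marks equal differences; Dbp, Ces1d and Per3 lie below it and H4c8 and Ddit3 near 0 on HFD.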

How the data were processed

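RNA was extracted by the Trizol method, biotin-labelled and hybridised to 1 Affymetrix array per heart, per the labels' protocols. The deposited table gives values for 34351 probe sets on a log scale, taken here as log2, which the authors centred so that each probe set has a median of 0 over the 16 arrays; their log base and sign, and how background, summarisation and normalization were handled, are not given in the sources used. Groups were taken from the sample titles. Probe sets with 1 gene symbol (23521) were averaged per gene, giving 22180 genes, of which 1082 had more than 1 probe set; 1814 probe sets with several symbols and 9016 with none listed were not used. Gene IDs were looked up in RefSeq genes of GRCm38.p6, 193 without a match, and 0 symbols changed.

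The comparison used limma 3.58.1 under R 4.3.3 (functions lmFit and eBayes, 1 mean per group over 16 arrays, 12 residual and 4.16 prior degrees of freedom). Tests were two-sided with Benjamini-Hochberg adjustment over all genes and a threshold of adjusted p under 0.05. The diet test was the interaction contrast of the same fit. The fit was tested on simulated data.

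Of 1472 symbols in 45 pathway and 20 cell type lists 1326 were measured. The members and lists were chosen with earlier results of these data known. Genes were named by a rule: Clock and both clock lists, the 20 largest rises and falls that did not overlap between groups, up to 5 called members of each list (otherwise the 2 smallest p), the 5 smallest p of the diet test and the 8 largest called on chow and not on HFD. Other called genes were named by role. The list members Oxct1, Scd1, Scd4, Kcnip2, Timp2, Timp3, Acta1, Nppa, Myh7 and others that did not pass were named after their values were seen.

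Same-numbered Clock and wild-type chow hearts deviated together with correlations of 0.019, -0.059, 0.15 and 0.0035 and no label ties the numbers to a litter, batch or day, so the numbers were not used as pairs. The labels give no batch. The alternatives were a fit of the 8 chow arrays, all probe sets, the probe set with the largest SD, array weights, robust eBayes, a repeated quantile normalization, leaving out the 25% of genes with the lowest SD in place of a filter on dim genes, a replicate block, leaving out each heart, and, added after seeing the data, only wild-type replicates 1 and 3. Figures were drawn with Python 3.11.15 and matplotlib 3.10.9.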

Additional observations from a re-analysis of the deposited data

Results flagged for a closer look

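A heart was looked at again where its distance from the nearest heart of its group took up most of the group's range, by Dixon's test at its 95% critical value for 4 samples. Chance alone marks about 5% of groups, and 19 of 306 gene and group pairs (6.21%) and 6 of 130 list means (4.62%) were marked.

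Among wild-type hearts, replicate 2 was marked for Iigp1, at 2.94 against 0.12 to 0.32, for the mean of the interferon-inducible list, at 0.92, and for the hexokinase gene Hk1, at -0.23. Replicate 4 was marked for Rora at -0.054, Amy1 at -0.069 and the proteasome gene Psmd7 at -0.16, and for the means of the cell cycle list (-0.011) and of the NAD and sirtuin list (-0.11). Wild-type replicate 1 was marked for the ribosomal gene Rpl3 at -0.058, and replicate 3 for Reln at 0.00086 and the mast cell protease gene Cma1 at 0.17.

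Among Clock hearts, replicate 4 was marked for Ciart at 0.17, Lcn2 at 0.049, Cd14 at 0.010, Pam at -0.23, Col15a1 at -0.0060 and the airway secretory gene Scgb1a1 at 1.04 against -0.0030 to 0.048. It was also marked for the means of the neutrophil list (0.16) and of the mitochondrial ribosome list (-0.095). Clock replicate 3 was marked for Mmp9 at 0.56, Mrpl39 at 0.051 and the mean of the peroxisomal and lipid-hydrolysing list (-0.040). Clock replicate 1 was marked for Emcn at 0.16, Lrrc10 at -0.70 and Art4 at -0.48.

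Among probe sets that name several genes or none listed, which the comparison left out, 19 were past the threshold on chow when all probe sets were fitted together.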

How the results depend on the processing

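Centred values hold no signal level, so nothing here separates dim from bright probe sets. Of the 109 genes called on chow, 38 (14 higher, 24 lower) were called in each of the 8 fits that left out 1 heart, and 0 turned sign in any setting run. The count was 49 to 144 over those fits, with 20 to 86 higher and 28 to 67 lower. It was 49 without Clock replicate 1 or without wild-type replicate 2, 64 without Clock replicate 3 and 144 without Clock replicate 4. A fit of the 8 chow arrays, which has fewer degrees of freedom, called 38 genes (16 higher, 22 lower), 36 of them among the 109. With wild-type replicates 1 and 3 as the only controls, a choice made after seeing the data, 49 were called (16 higher, 33 lower), 41 of them among the 109. The other settings gave 107 to 139 genes apart from the replicate block, which gave 85 (38 higher, 47 lower), 73 of them among the 109; the shared numbers do not pair the hearts. The count of genes whose genotype difference differed between diets was 0 wherever that test could be made, which excludes the fit of chow arrays alone. Among single genes that the text or its rule names, Cry1 was -0.034 without wild-type replicate 1 (range -0.034 to 0.097 over the fits that left out 1 heart). Npas2 was -0.050 after the repeated quantile normalization and -0.072 without wild-type replicate 3 (range -0.072 to 0.27). With only wild-type replicates 1 and 3, Bckdha was -0.0040, Slc4a1 0.013 and Xist 0.00026. None of these 5 genes was past the threshold, and the cause was not tested. Calls or non-calls of named genes kept their side in 2174 of the gene and setting pairs, 233 were lost and 29 gained.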
